A study of Mus musculus with 33 samples.

Results

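The genes described here are 9 transcription factors of the developing cortex and forebrain, Emx1, Emx2, Lhx2, Otx2, Pax6, Nfia, Nfib, Lmx1a and Eomes. They were taken as a named list, and all 9 were found among the 20540 protein-coding genes that the RefSeq annotation of GRCm38.p6 places within the domain maps. H3K9me2, a histone mark of repressed chromatin, and Lamin B1, a protein of the nuclear lamina, were profiled by CUT&RUN, in which an antibody directs an enzyme that cuts out the DNA beside it. The sources were mouse embryonic stem (mES) cells of a C57BL/6 line grown in LIF with a pair of inhibitors (2i), whole hearts of E11.5 C57BL/6 embryos, and right forebrain lobes of such embryos, all wild type and without other treatment. Each source had 3 biological replicates, separate culture vessels for the mES cells and separate pools of litters for the tissues. H3K9me2 and Lamin B1 had 3 libraries each per source, and IgG, the control antibody, had 6 for each tissue and 3 for the mES cells, which makes 33 libraries.

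The values below come from 9 lists of domains, 3 per source, named LAD (lamina-associated domain), KOD and open by the depositors. KOD is not spelled out in the sources used here. Domains run in whole bins of 10 kb over chromosomes 1 to 19 of mm10, and the lists of a source shared 0 bins. There is 1 list per state for all replicates of a source, with no score, so no value below has a replicate error or a test, and the depth behind a domain is unknown. LADs covered 40.1% to 44.0% of the map, KODs 17.2% to 18.5% and open domains 29.8% to 31.7%. Unlisted bins made up 7.17% of the mES map, 11.6% of the heart map and 7.71% of the forebrain map. RNA was not measured, so tissue markers could not be checked and a state does not say whether a gene was active. A whole forebrain lobe or heart holds many cell types, and its lists do not say in which of them a state was present.

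Chromatin at the nuclear lamina is mostly repressed, and genes that become active in a lineage can leave it as cells differentiate. H3K9me2 is found in such domains and also in stretches away from them. The 9 genes act at successive steps of forebrain formation. Otx2 sets up the forebrain and midbrain territory, Lhx2, Pax6, Emx1 and Emx2 specify and pattern the cortical neuroepithelium, Lmx1a marks the roof plate and the cortical hem at its margin, Eomes (also called Tbr2) is made in intermediate progenitors of the cortex, and Nfia and Nfib promote the later differentiation of neurons and glia.

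The promoters of 5 genes are shown first because these genes stood for 3 different orders of states. Emx2, Lhx2 and Otx2 were KOD in forebrain alone, Emx1 was KOD in mES cells alone, and Nfia was a LAD in mES cells alone. Each sequence is 300 bases from RefSeq (GRCm38.p6), 5′ to 3′ on the strand of the gene, with 250 bases before the first start of transcription in the table, and CG dinucleotides are in capitals.
Emx2 (chr19:59458440-59458739, plus strand): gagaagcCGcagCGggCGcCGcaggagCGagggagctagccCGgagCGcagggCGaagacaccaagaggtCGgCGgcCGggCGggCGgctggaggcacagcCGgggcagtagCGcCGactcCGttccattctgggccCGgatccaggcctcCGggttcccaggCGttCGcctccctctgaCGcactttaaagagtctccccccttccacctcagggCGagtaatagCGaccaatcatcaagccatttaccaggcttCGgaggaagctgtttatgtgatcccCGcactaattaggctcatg
Lhx2 (chr2:38339031-38339330, plus strand): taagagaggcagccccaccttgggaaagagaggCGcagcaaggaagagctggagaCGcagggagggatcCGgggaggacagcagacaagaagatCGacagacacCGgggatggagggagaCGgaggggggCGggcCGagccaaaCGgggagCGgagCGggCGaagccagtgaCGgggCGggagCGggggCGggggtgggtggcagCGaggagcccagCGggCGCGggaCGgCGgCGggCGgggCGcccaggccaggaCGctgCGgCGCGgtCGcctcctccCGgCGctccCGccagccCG
Otx2 (chr14:48667595-48667894, minus strand): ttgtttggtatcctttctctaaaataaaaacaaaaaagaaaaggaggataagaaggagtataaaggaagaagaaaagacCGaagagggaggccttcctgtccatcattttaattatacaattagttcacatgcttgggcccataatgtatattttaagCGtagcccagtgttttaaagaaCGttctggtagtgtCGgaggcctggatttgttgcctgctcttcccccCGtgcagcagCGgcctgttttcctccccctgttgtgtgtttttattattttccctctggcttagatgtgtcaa
Emx1 (chr6:85187681-85187980, plus strand): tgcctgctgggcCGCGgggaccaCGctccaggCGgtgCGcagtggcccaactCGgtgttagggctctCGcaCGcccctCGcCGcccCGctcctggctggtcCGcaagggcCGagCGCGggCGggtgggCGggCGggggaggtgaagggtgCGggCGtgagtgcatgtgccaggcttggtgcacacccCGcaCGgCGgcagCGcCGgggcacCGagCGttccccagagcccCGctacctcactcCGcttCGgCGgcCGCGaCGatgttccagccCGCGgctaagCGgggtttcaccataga
Nfia (chr4:97581693-97581992, plus strand): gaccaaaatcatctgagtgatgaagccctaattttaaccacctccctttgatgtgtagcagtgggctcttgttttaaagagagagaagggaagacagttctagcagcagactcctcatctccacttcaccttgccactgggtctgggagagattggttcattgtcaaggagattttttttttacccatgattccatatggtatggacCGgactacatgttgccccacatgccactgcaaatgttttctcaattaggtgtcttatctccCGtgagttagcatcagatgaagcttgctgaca
All of these windows lie inside single domains in every map. The Emx1 window held 37 CG dinucleotides, that of Lhx2 34, that of Emx2 26, that of Otx2 6 and that of Nfia 2, whereas the median of 31387 promoter windows on chromosomes 1 to 19 was 7. Windows rich in CG thus stood both among the genes that were KOD in forebrain and at Emx1, which was not, and at Otx2, which shared the forebrain state of Emx2 and Lhx2, the first window was just below the median. The windows at the other Otx2 starts held 8, 16 and 11 CG dinucleotides. The only start given for Nfia, at 97581943, lies inside its body, which begins at 97578066. The Nfia window is therefore not that of the left end of the gene, for which no window was given. The letters TAATTA, a core that many homeodomain proteins bind and which reads the same on both strands, occurred 1 time in the Emx2 window and 1 time in that of Otx2. They were not in those of Emx1, Lhx2 and Nfia, and 5.27% of all windows held them. Of the other Otx2 windows, the one with 16 CG dinucleotides held TAATTA 3 times, and those with 8 and 11 did not hold it. A match describes the letters and is not evidence of a bound factor. In all, 8 of the 9 genes had an entry in the promoter table, with 13 starts among them, and Nfib had none.

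By the state with the largest share of its body, the open genes numbered 5 of 9 in the mES map, 8 in that of heart and 6 in that of forebrain. Of all protein-coding genes 63.9%, 58.4% and 57.7% were open in these maps. LAD was the state of 2 genes in mES cells, Nfia and Lmx1a, and of none in heart or forebrain, with 16.6%, 14.3% and 16.6% for all genes. KOD was the state of 1 gene in mES cells (Emx1), of none in heart and of 3 in forebrain (Emx2, Lhx2 and Otx2), with 13.0%, 17.9% and 19.0% for all genes. Unlisted were Pax6 in the mES map (6.48% of all genes) and Lmx1a in the heart map (9.44%), and in the forebrain map 0 of the 9 (6.65%).

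**Figure D1:**
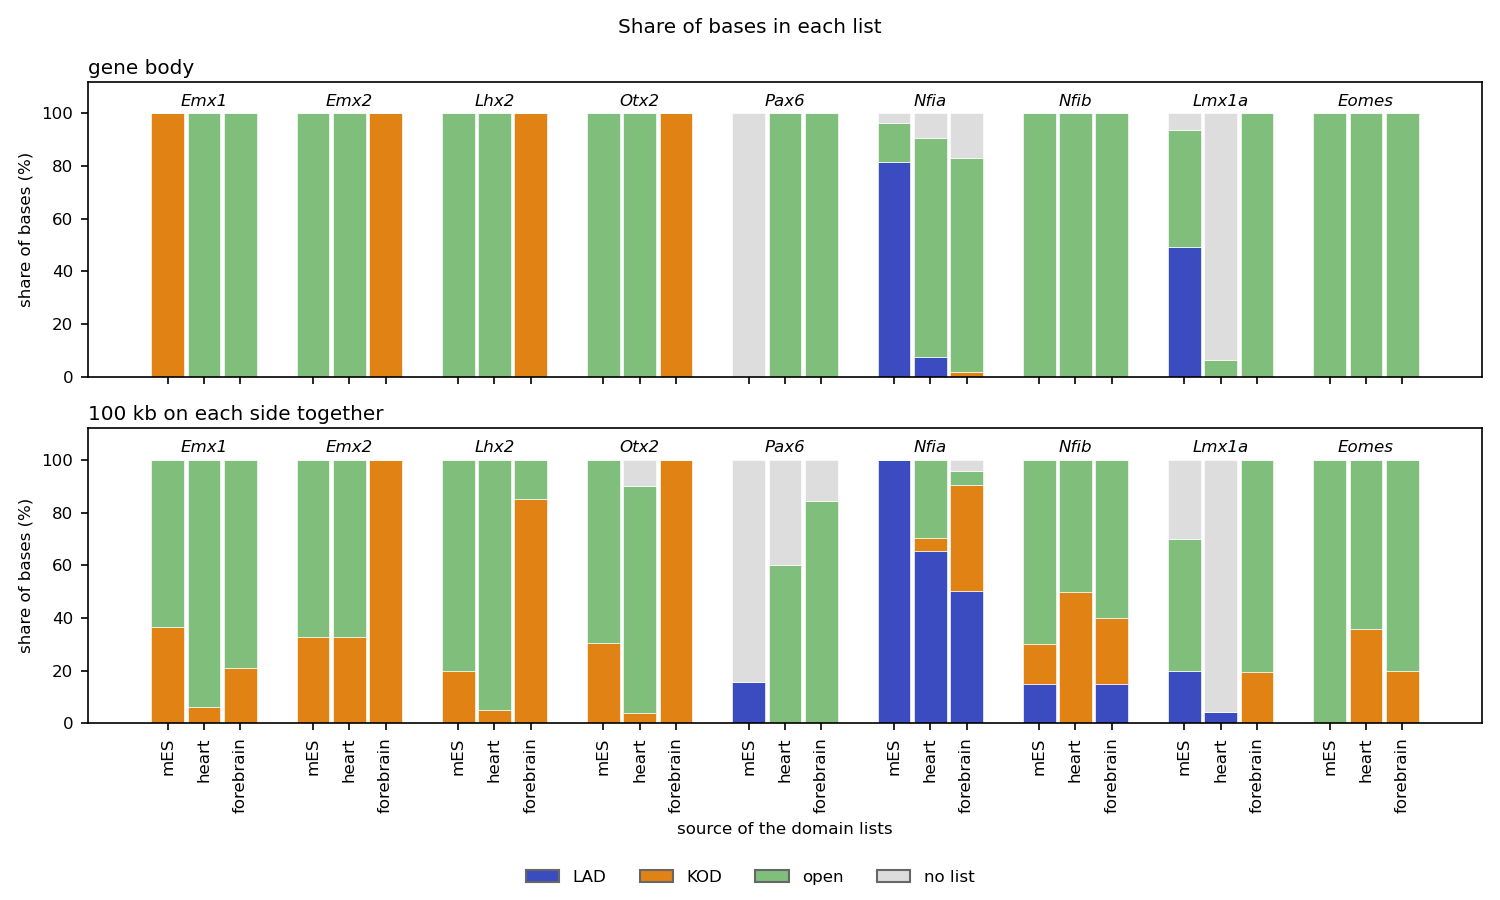
Share of bases in LAD, KOD, open and no list for each gene (groups of 3 bars: mES cells, heart, forebrain), as stacked bars in percent. The upper panel shows the gene body and the lower panel 100 kb on each side together. The bodies of Emx2, Lhx2 and Otx2 are 100% KOD in forebrain, and in mES cells the Nfia body is 81.5% LAD.

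Between mES cells and forebrain, 6 of the 8 genes listed in both maps had different states, against 22.6% of all genes listed in both. They were Nfia and Lmx1a (LAD, then open), Emx1 (KOD, then open) and Emx2, Lhx2 and Otx2 (open, then KOD). Between mES cells and heart the states differed for 2 of 7 genes, Nfia and Emx1, against 19.6% of all genes. Between heart and forebrain they differed for 3 of 8, again Emx2, Lhx2 and Otx2, against 15.2%. The 3 comparisons use the same 3 maps and are not independent, and the genes were chosen with results of these data known. By bins instead of genes, 49.6% of the 248 bins in the bodies and flanks that were listed in both mES cells and forebrain differed, compared with 19.2% of the whole map. Between mES cells and heart 35.0% of 223 bins differed (18.2% of the map), and between heart and forebrain 32.3% of 232 (14.9%). Nfia, the longest of the genes, held 42 of the 78 bins that differed between mES cells and heart, and 68 of the 223 compared. It held 44 of the 123 that differed between mES cells and forebrain, and 8 of 75 between heart and forebrain. Neighbouring bins are not independent.

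Emx2, Lhx2 and Otx2, which encode homeodomain factors on 3 chromosomes, were open in mES cells and in heart and KOD in forebrain, each over 100% of the body. This order of states (open, open, KOD) was found for 5.05% of all protein-coding genes. Among genes open in mES cells and listed in both maps, 19.1% were KOD in forebrain, and among those open in heart 10.1% were. On the chromosomes of these genes the share from mES cells to forebrain was 21.7% (chromosome 19, Emx2), 14.8% (chromosome 2, Lhx2) and 8.6% (chromosome 14, Otx2). From heart to forebrain it was 8.47%, 8.67% and 2.26% on the same chromosomes. All 7 starts of transcription in the table for these 3 genes, 1 of Emx2, 2 of Lhx2 and 4 of Otx2, had the state of the body in each map.

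The Emx2 gene (gene ID 13797) lies on chromosome 19 from 59458690 to 59465357. Its left flank of 100 kb was 100% open in mES cells and heart and 100% KOD in forebrain. The right flank was 65.4% KOD and 34.6% open in both mES cells and heart, with the same border, and 100% KOD in forebrain. In the forebrain map the gene sat within a single KOD of 1900 kb (58860001 to 60760000) that wholly held 12 protein-coding genes. In mES cells it was in an open domain of 390 kb that ended 34.6 kb to the right of the gene, and in heart in one of 340 kb with the same right end. The stretch that went from open in mES cells to KOD in forebrain ran over 390 kb, from 59110001 to 59500000, and held Vax1, Kcnk18, Slc18a2, Pdzd8 and Emx2. Vax1 encodes a homeodomain factor of the ventral forebrain and eye, and Slc18a2 the vesicular monoamine transporter. The change of list at Emx2 was thus that of a block of 5 genes.

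Lhx2 (gene ID 16870) lies on chromosome 2 from 38339271 to 38369737. The left flank was 100% open in mES cells, 90.0% open and 10.0% KOD in heart, and 100% KOD in forebrain. The right flank was 60.0%, 100% and 30.0% open in mES cells, heart and forebrain, and KOD over the remaining 40.0% and 70.0% in mES cells and forebrain. In forebrain the gene lay at the very edge of a KOD of 530 kb (37840001 to 38370000), which ended 0.263 kb past the gene and gave way to 30 kb of open bins. With 20 kb trimmed from the ends of every domain, the KOD still reached into the Lhx2 body in forebrain, but the largest share of the body was then in no list. Its only protein-coding neighbour within 100 kb, Dennd1a, a gene of membrane traffic, had the same states in all 3 maps. The long noncoding RNA genes Gm27197 and Gm13584 lie within the Lhx2 body and share its states.

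Otx2 (gene ID 18424) lies on chromosome 14 from 48656781 to 48667644, on the minus strand. Both flanks were mainly open in mES cells (66.8% left and 72.4% right) and in heart (90.0% and 82.4%), and both were 100% KOD in forebrain. The open domain over the gene was 150 kb long in mES cells and also in heart, where it lay 10 kb further to the right. In forebrain it was covered by a KOD of 460 kb (48550001 to 49010000) in which Otx2 was the only protein-coding gene wholly inside. Tmem260, the neighbour to the left, was open in all 3 maps. Of the 22 bins of body and flanks, 15 differed between mES cells and forebrain, and 19 of the 20 listed in both differed between heart and forebrain.

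**Figure D2:**
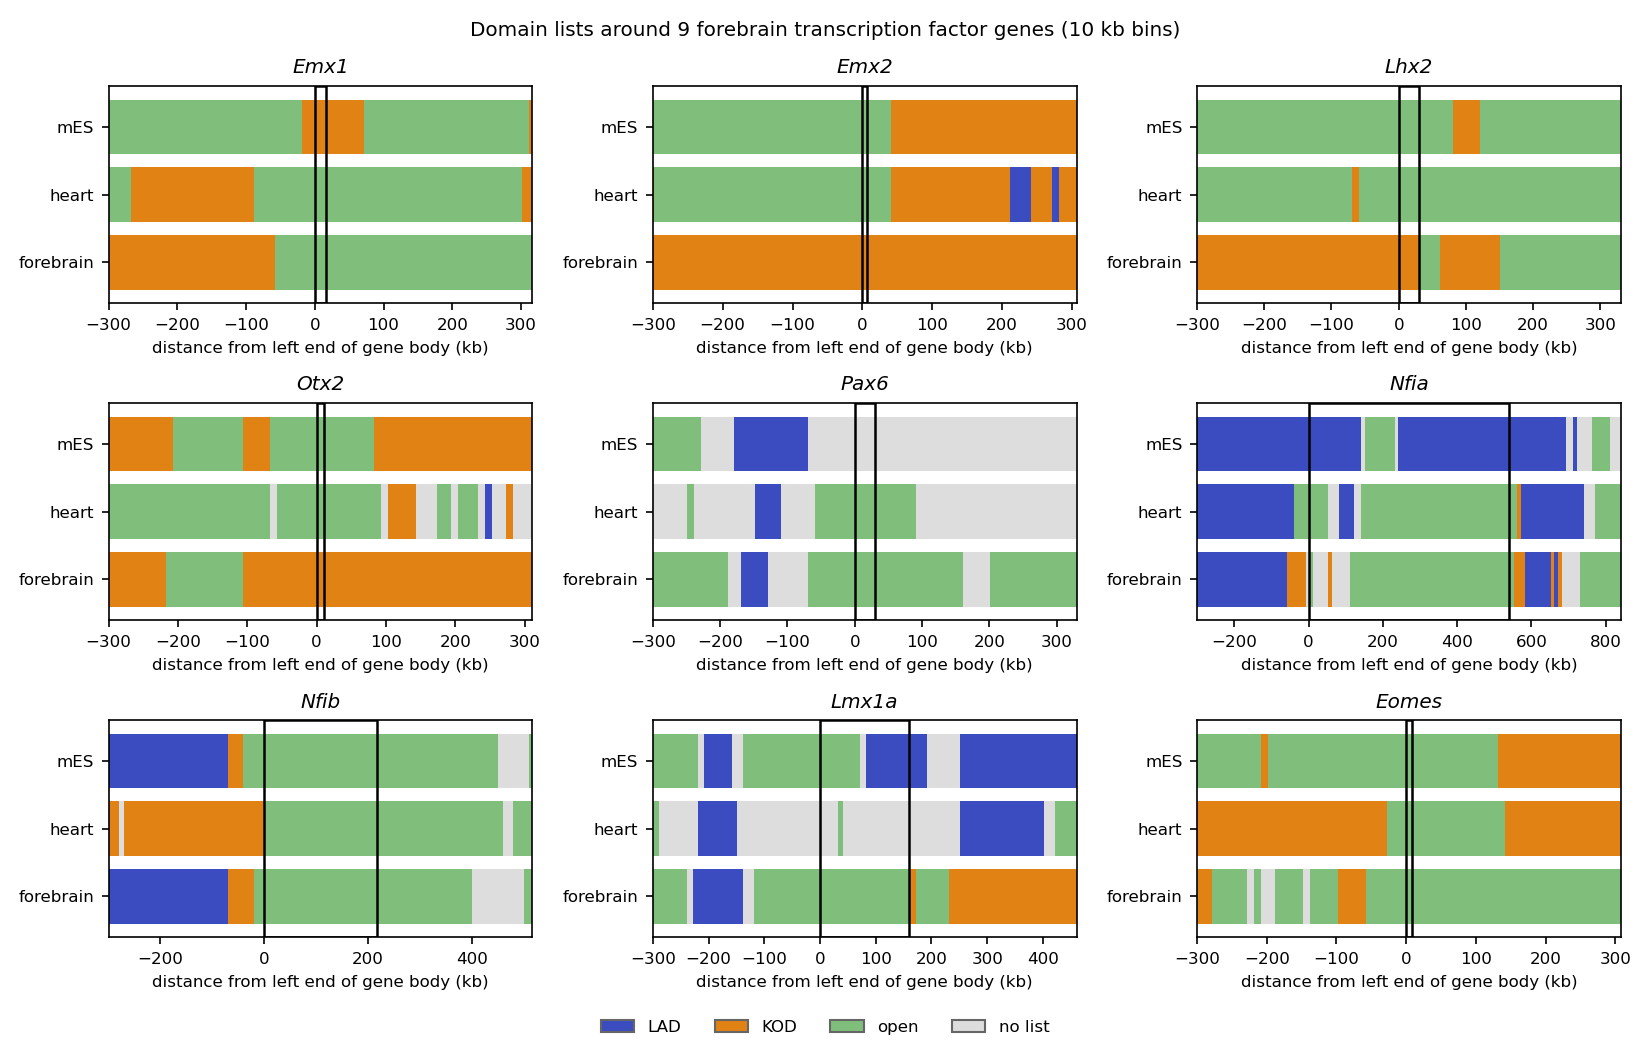
State of each 10 kb bin from 300 kb left to 300 kb right of the 9 genes, with 1 row per source and the gene body outlined in black, against distance in kb from the left end of the gene. Forebrain KODs cover Emx2, Lhx2 and Otx2, while the Nfia body is mostly LAD in mES cells and mostly open in both tissues.

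Emx1, the paralogue of Emx2 (gene ID 13796, chromosome 6 from 85187931 to 85204463), was 100% KOD in the mES map and 100% open in that of either tissue. These states (KOD, open, open) were found for 3.13% of all genes, and 42.9% of the genes with the KOD state in mES cells and a state in both maps were open in forebrain, with 30.7% for heart. The KOD of mES cells was short, 90 kb from 85170001 to 85260000, and Emx1 was the only protein-coding gene wholly inside. With all domains under 100 kb left out, Emx1 was in no list in mES cells. In the tissues the gene lay in open domains of 390 kb (heart) and 380 kb (forebrain). Its neighbours Spr and Sfxn5 were open in all 3 maps, although the right border of the mES KOD lies inside Sfxn5. On the left a KOD came nearer to Emx1 in forebrain than in heart. The left flank was 82.1%, 87.9% and 57.9% open in mES cells, heart and forebrain, and the right flank 44.5%, 100% and 100%. The paralogues Emx1 and Emx2 were thus in different lists in mES cells and in forebrain, in opposite directions, and both were open in heart.

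Pax6, a paired-domain and homeodomain factor of cortical radial glia and the eye (gene ID 18508, chromosome 2 from 105668896 to 105698410), was open over 100% of its body in heart and in forebrain. In mES cells the whole body was in no list, as were 68.9% of the left and 100% of the right flank, and the other 31.1% of the left flank was LAD. The unlisted stretch over the gene in mES cells was 440 kb long (105600001 to 106040000). Neither of the 2 comparisons with mES cells could therefore be made by state. No list in mES cells with open in both tissues was the pattern of 1.15% of all genes. The open domain at Pax6 was 150 kb in heart (105610001 to 105760000) and 230 kb in forebrain (105600001 to 105830000), with no other protein-coding gene wholly inside either. Elp4, an Elongator subunit gene that overlaps the right end of Pax6, was in no list in mES cells and heart and open in forebrain. The right flank, which lies in Elp4, was 61.6% open in heart and 100% open in forebrain. A LAD stood near the gene in each map, 68.9 kb away in mES cells, 109 kb in heart and 129 kb in forebrain.

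Nfia (gene ID 18027) spans 541 kb of chromosome 4, from 97578066 to 98118876, and was the member with the most LAD. Its body was 81.5% LAD, 14.8% open and 3.7% in no list in mES cells. In heart it was 83.4% open, 7.4% LAD and 9.25% unlisted, and in forebrain 81.2% open, 1.85% KOD and 17.0% unlisted, with no LAD. The order LAD, open, open was found for 0.871% of all genes. Of the genes with a LAD state in mES cells and a state in both maps, 9.45% were open in forebrain and 12.3% in heart.

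The Nfia body was not uniform in any map. In mES cells an open island of 80 kb (97730001 to 97810000) lay inside the gene between a LAD of 1680 kb on the left and one of 450 kb on the right. In heart and forebrain the right part of the gene was a single open domain, of 420 kb (97720001 to 98140000) and 440 kb (97690001 to 98130000), both of which contain the island. The 5′ part differed more. The only start of transcription given for Nfia, at 97581943, lies inside the body. It was in a LAD in mES cells and in an open domain of 90 kb in heart. In forebrain it was in a single open bin, with mostly unlisted bins for the next 100 kb. The bin at the left end of the body, from 97570001 to 97580000, was in no list in forebrain. Heart kept a LAD of 40 kb (97660001 to 97700000) inside the gene. The flanks stayed partly LAD. In mES cells, heart and forebrain the left flank was 100%, 61.9% and 41.9% LAD, and the right flank 100%, 68.9% and 58.9%. In forebrain 50.0% of the left flank and 30.0% of the right flank was KOD, compared with 0% and 10.0% in heart. No protein-coding gene lay within 100 kb of Nfia, and 5 noncoding RNA genes overlap its body.

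Nfib (gene ID 18028), on the same chromosome from 82290173 to 82506751, was 100% open in all 3 maps, as were 44.0% of all genes. Its right flank was 100% open in each. On the left the open domain began 40.2 kb from the gene in mES cells, 20.2 kb in forebrain and 0.172 kb in heart. Beyond that border the left flank was 30.0% KOD and 29.8% LAD in mES cells, 50.0% KOD and 29.8% LAD in forebrain, and 99.8% KOD in heart, without LAD. The LAD on that side ended at 82220000 in both mES cells and forebrain, 70.2 kb from the gene. The nearest heart LAD on either side was 593 kb away, to the right of the gene. The NFI genes Nfia and Nfib thus differed in mES cells, where one lay mostly in LADs, and shared the open state in the tissues.

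Lmx1a, a LIM-homeodomain gene (gene ID 110648, chromosome 1 from 167688230 to 167848741), was split in mES cells, with 44.7% of the body open and 49.1% LAD. The open part was the left one, with the start of transcription at 167689558, and a LAD of 110 kb (167770001 to 167880000) covered the right part. Its LAD state therefore rests on 49.1% of the body, and at the midpoint the gene was in no list. In forebrain the body was 100% open, within an open domain of 280 kb (167570001 to 167850000) that ended 1.26 kb past the gene. In heart 93.8% of the body was in no list and 6.23% open. The flanks of heart were likewise unlisted over 100% on the left and 91.3% on the right, so Lmx1a could not be compared by state with the heart map. Rxrg, a retinoid X receptor gene to the left, was open in mES cells and forebrain and in no list in heart. LAD, no list and open, in that order, was the pattern of 0.38% of all genes.

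Eomes, a T-box gene that also acts in early mesoderm and endoderm (gene ID 13813, chromosome 9 from 118478186 to 118486132), was 100% open in all 3 maps, as was its neighbour Golga4. The right flank was 100% open in each. The open share of the left flank was 100%, 28.2% and 60.0% in mES cells, heart and forebrain, and it was KOD over the other 71.8% in heart and 40.0% in forebrain. The body was never less than 488 kb from a LAD. At Eomes and Nfib alike the gene was open in each map, and the border of the open domain on its left lay nearest to the gene in heart.

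Over the 9 genes the mean KOD share of the flanks was 15.0%, 15.4% and 45.6% in mES cells, heart and forebrain. For all protein-coding genes it was 15.2%, 21.3% and 21.8%. The median over the 9 genes in forebrain was 25.0%, since Emx2, Lhx2 and Otx2 with 100%, 85.0% and 100% hold most of the mean. The mean LAD share of the flanks was 16.7%, 7.75% and 7.26% in the same order (17.6%, 16.2% and 18.7% for all genes), and in mES cells Nfia with 100% makes up most of it. Of the 18 flanks, 4, 5 and 3 had another state than the body beside them in mES cells, heart and forebrain. Only 7 protein-coding genes lie in or overlap the 100 kb flanks, at 6 of the 9 genes, and 2 of them, Dennd1a and Golga4, had the states of their member in all 3 maps. Flanks and neighbours were not counted in this way for all protein-coding genes, so these counts have no such share beside them.

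Protein-coding genes on other chromosomes were ranked by the mean difference of their shares from those of a member, over the 3 sources and over body and flanks, where 0 is the same and 1 is wholly different. Nearest to Emx2 were Col16a1 (0.00831), Azin2 (0.00893) and H4c2 (0.0143). For Lhx2 they were 7530416G11Rik (0.00833), Nkx1-2 (0.0278) and Aspscr1 (0.0309), and for Otx2 Faap20 (0.0239), Azin2 (0.0444) and Lgals3bp (0.046). Emx1 had Ngb (0.0297), Xkr7 (0.0317) and Gm18905 (0.0384), and Pax6 had Cryzl2 (0.0352), Taf10 (0.0368) and Ilk (0.0409). The maps of Nfia and Lmx1a had no such close match. The nearest were Slco3a1 (0.191), Ppp1r17 (0.199) and Usp25 (0.201) for Nfia, and Zfp954 (0.176), Rcn1 (0.177) and Zfp773 (0.183) for Lmx1a.

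Of 9 paralogues of these genes, 7 were open in the mES map, 8 in that of heart and 5 in that of forebrain, and none was LAD in any map. For all protein-coding genes the open shares were 63.9%, 58.4% and 57.7%, and the LAD shares 16.6%, 14.3% and 16.6%. Otx1, the paralogue of Otx2, was 100% open in all 3 maps, whereas Crx, the photoreceptor member of that family, was 100% open in mES cells and heart and 100% KOD in forebrain, as Otx2 was. Lmx1b was 100% open in mES cells, 88.7% open in heart and 62.6% KOD in forebrain, where Lmx1a was open. Nfic and Nfix were 100% open throughout, as Nfib was, as was Pax4. Tbr1, which follows Eomes in cortical neurons, was in no list in mES cells and 100% open in both tissues, and Tbx21, a T-box gene of T cells, was 100% open in the stem cells, with 100% KOD in either tissue. Lhx9 was open in heart and in no list in the other maps.

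Among 47 other transcription factors of the cortex, 36 were listed in both mES cells and forebrain, and 9 of them (25.0%) had different states, near the 22.6% of all genes. Of the 36, 7 were open and then KOD, among them Lhx5, Sox9, Id4, Neurog1, Neurod2 and Barhl2, as were 13.1% of all genes listed in both. Foxp2, a forkhead gene, was 96.3% LAD in mES cells and in forebrain 44.8% open and 36.7% LAD, and Ebf3 was 51.4% KOD and then 79.6% open. With 20 kb trimmed from domain ends 3 of the 9 differed, namely Sox9, Barhl2 and Ebf3. Only genes still listed in both maps could count, so a gene could also drop out because trimming left it in no list. How many genes of any list stayed listed was not counted. Of 21 factors of the ventral forebrain 19 were listed in both maps and 6 (31.6%) differed, with Dlx1, Dlx2, Gsx2, Olig2 and Vax1 from open to KOD and Nkx6-2 from KOD to open. Vax1 lies in the stretch that changed with Emx2, and Dlx1 and Dlx2 lie close together on chromosome 2, so these counts are not of separate loci. With trimmed ends 5 of the 6 differed, without Nkx6-2. Of 18 factors of the midbrain, hindbrain and spinal cord 6 (33.3%) differed, with Gbx2, Pax3, Lbx1 and Evx1 from open to KOD and Pax5 and Egr2 from KOD to open. In forebrain Pax3 was nearly even, with 50.8% KOD and 49.2% open, as was Pax5, with 51.2% open and 48.8% KOD. With trimmed ends 4 of the 6 differed, without Pax3 and Pax5. Of 22 cardiac factors 18 were listed in both maps and 3 (16.7%) differed, Gata4, Tbx2 and Tbx3, all from open to KOD. Open to KOD in forebrain was thus found in each of these lists, cardiac factors included. Of these genes 4, 2, 1 and 1, in the order of the lists, were open in heart, as Emx2, Lhx2 and Otx2 were. Those states (open, open, KOD) were found for 5.05% of all genes. The other 3, 3, 3 and 2 were KOD in heart as well as in forebrain, as were 6.55% of all genes.

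**Figure D3:**
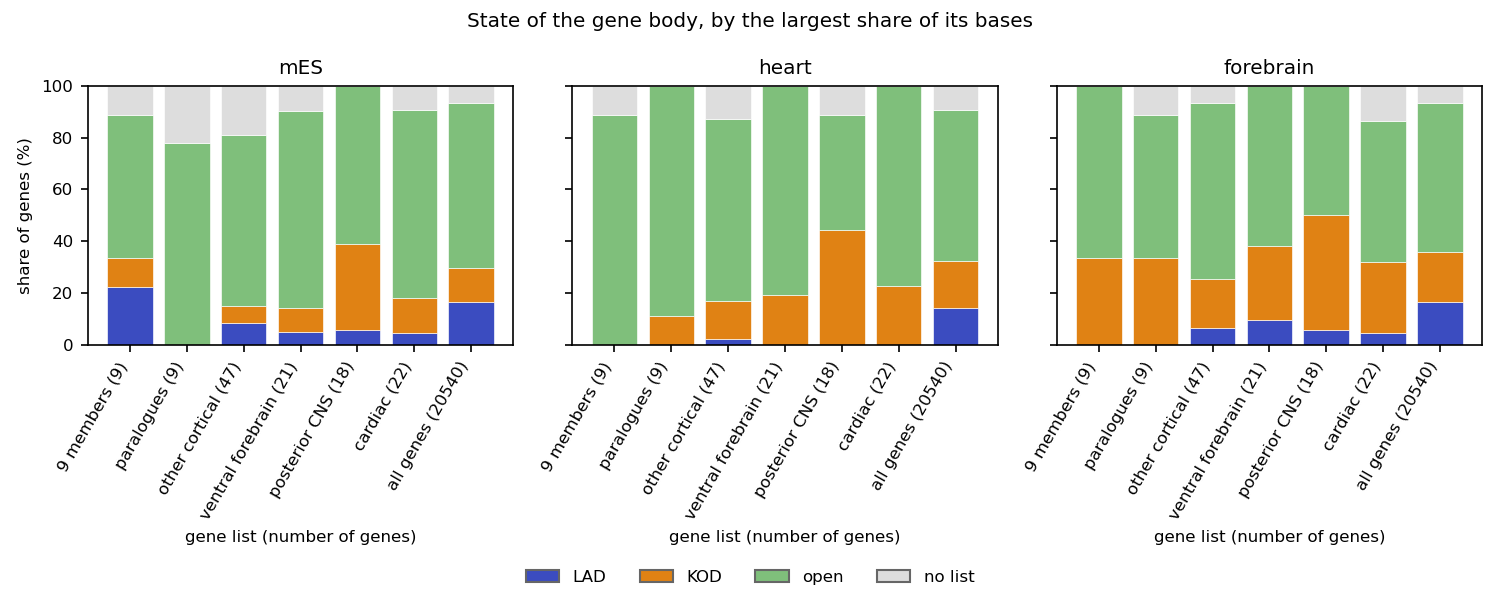
Share of genes in percent by the state of the gene body in mES cells, heart and forebrain, for the 9 genes, their paralogues, 4 other lists of transcription factors and all protein-coding genes, with the number of genes in parentheses. No member is LAD in heart or forebrain, and 3 of 9 are KOD in forebrain.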

How the data were processed

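CUT&RUN libraries for H3K9me2, Lamin B1 and IgG were made from mES cells and from E11.5 heart and forebrain, per the labels' protocols. The submitters' processing notes name mm10 as the build and list Bowtie2 2.5.0, cutadapt 4.2, deepTools, Picard and Trim Galore. The domain caller, its thresholds and the use of IgG are not stated there or in the labels. The authors deposited 9 lists of start and end positions, 1 per state for all replicates of a source, with no score, so depth and replicate error are unknown. Signal tracks were not used here.

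Lists were painted in bins of 10 kb with Python 3.11.15, numpy 2.4.6 and pandas 2.3.3, and figures drawn with matplotlib 3.10.9. Shares count bases of the RefSeq gene body and of 100 kb on each side. A gene was given the state with the largest share of its body, no list included. The counting of bases was tested on simulated domains, with 0 mismatches in 200 intervals. Gene coordinates are those of GRCm38.p6, the assembly behind mm10, and 20540 protein-coding genes overlap the span of the maps. Exons were not annotated here. No tests were run, since each source has 1 pooled list per state.

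The members and gene lists were chosen with earlier results of these data known. All members, paralogues and protein-coding neighbours are named. Of other lists, genes whose state differed between mES cells and forebrain are named, at most 6 each way (1 gene of these lists is not reported here by name), and so are the 3 genes on other chromosomes nearest to each member that differed between sources. Alternatives were trimmed or longer domains only, other rules for the state of a gene, and flanks of 50 and 200 kb.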

Additional observations from a re-analysis of the deposited data

Results flagged for a closer look

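At 3 genes the share of body and flanks together in a state moved in opposite directions from mES cells to heart and from mES cells to forebrain, by at least 10 percentage points each way. These differences rest on 1 list per state and source, share the mES lists, and were not tested. The rule was applied to the members only, and the share of all protein-coding genes that meet it was not computed. The KOD share of Lhx2 was 17.4%, 4.34% and 87.0% in mES cells, heart and forebrain, a difference of -13.1 points for heart and 69.6 points for forebrain. Its open share differed by 13.1 and -69.6 points. For Otx2 the KOD shares were 28.9%, 3.63% and 100%, which differ by -25.3 and 71.1 points, and the open share differed by 15.8 and -71.1 points. The open share of Lmx1a was 47.6%, 2.77% and 89.3% in the same order, which differ by -44.8 and 41.7 points. At Lmx1a the low value of heart goes with bins in no list, which made up 93.8% of the body there.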

How the results depend on the processing

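No paired analysis was possible because each source has 1 list per state and none per replicate. For the same reason no replicate could be left out. Of 67 counts of genes recomputed under other rules, 59 were within 1.5 times the reported count and 8 were not. Within that limit, the 6 members that differed between mES cells and forebrain became 5 with trimmed ends (without Lhx2). They were also 5 without domains under 100 kb (without Emx1). At the midpoint, at the start of transcription and with at least 50% of the body required they were 5, without Lmx1a. With the flanks counted in they were 4, without Emx1 and Lmx1a, and with no list counted as a state 7. The number of members that were LAD in mES cells fell from 2 to 1, without Lmx1a, at the midpoint of the body, at the start of transcription, with at least 50% of the body required, and with the flanks counted in. The number that differed between mES cells and heart went from 2 to 1 when only domains of at least 100 kb counted and when the flanks were counted in, both without Emx1, and to 4 with no list counted as a state, which adds Pax6 and Lmx1a. Of the 47 other cortical factors 3 in place of 9 differed between mES cells and forebrain with 20 kb trimmed from domain ends. Genes that trimming left in no list could not count as different. Emx2 and Otx2 were open in mES cells and heart and KOD in forebrain under all 7 alternatives that set a state, and Lhx2 under 6 of them, since with trimmed ends the largest share of its body in forebrain was in no list, so that 2 members in place of 3 were KOD there. The start of transcription could be used for 8 genes, without Nfib. Of the shares of both flanks in LAD, KOD or open, 37 moved by over 5 percentage points with flanks of 50 kb and 44 did not, and with 200 kb 47 did and 34 did not. Of the open shares of bodies, 7 moved with trimmed ends and 20 did not, and 3 moved with unlisted bases left out and 23 did not. The mean KOD share of the flanks in forebrain was 42.4%, 45.6% and 40.8% with flanks of 50, 100 and 200 kb.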

Other observations

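Pax6 was not alone among forebrain factors in lying outside every list of mES cells. Of the 47 other cortical factors 9 (19.1%) were in no list in mES cells, compared with 6.48% of all protein-coding genes. Among them Nr2f1, Sp8, Tbr1, Pou3f2 and Zic1 were open in both tissues, each with its whole body in no list of mES cells, within unlisted stretches of 70 to 240 kb. Nr2f1 and Sp8 take part in cortical patterning, and Tbr1 and Pou3f2 act in cortical neurons. No list, open and open was the pattern of 1.15% of all genes. These genes were picked after their values were seen, the pattern was not tested, and the labels do not say what leaves a bin out of every list.

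The Neurod and Neurog genes of the list, basic helix-loop-helix factors of neuronal differentiation, shared no common order of states. In mES cells, heart and forebrain Neurod1 was LAD, no list and LAD, Neurod4 no list, LAD and LAD, and Neurod6 LAD, no list and no list. Neurod2 was open, open and KOD, Neurog1 open, KOD and KOD, and Neurog2 open in all 3 maps. Of all protein-coding genes 16.6%, 14.3% and 16.6% were LAD in these maps. Foxp2 was the 1 of the 47 that had the states of Lmx1a, LAD in mES cells, no list in heart and open in forebrain. These genes too were chosen after their values were seen.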
